A study of Schizosaccharomyces pombe with 8 samples.

Results

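Glycerol and trehalose are small carbon compounds that fission yeast, Schizosaccharomyces pombe, makes and breaks down when its osmotic, heat or nutrient conditions change. Transcripts of 6 genes of these pathways are described here: gpd1 (SPBC215.05), gut2 (SPCC1223.03c) and gld1 (SPAC13F5.03c) of glycerol metabolism, and tps1 (SPAC328.03), tpp1 (SPAC19G12.15c) and ntp1 (SPBC660.07) of trehalose metabolism. They were chosen by name, with earlier results of these data known. All 6 were measured, each by 1 probe set, among 2896 S. pombe genes with a named probe set. Cells were treated at 30 °C for 15 min in phosphate-buffered saline with 3 mM detaNONOate, a compound that gives off nitric oxide, and control cells were given a decomposed solution of it. The 4 groups, with 2 Affymetrix arrays each, were treated and control wild type cells (strain 972h-) and treated and control cells of strain AV25 (h- pap1::kanMX6), in which the gene for the stress transcription factor Pap1 is deleted. Before treatment all cells were grown in yeast extract medium to an OD600 of 0.5, and per the labels the control and treatment sets were drawn from a common flask, so the p-values below measure the spread between these samples, which may be partly technical. The deletion is represented by 1 strain, so effects of its background cannot be told apart from those of the missing gene. The arrays of a group are labelled biological replicates, and with 2 per group their number limits the precision of every value.

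Glycerol is made from the glycolytic intermediate dihydroxyacetone phosphate. Glycerol-3-phosphate dehydrogenase, encoded by gpd1, takes the first step and consumes NADH, and a phosphatase then releases glycerol, which holds water in the cell under osmotic stress. The mitochondrial enzyme encoded by gut2 oxidizes glycerol-3-phosphate back and passes electrons to the respiratory chain. Glycerol dehydrogenase, encoded by gld1, oxidizes glycerol to dihydroxyacetone and lets fission yeast use it as a carbon source. Trehalose, a disaccharide that protects proteins and membranes, is made by the trehalose-6-phosphate synthase tps1 and the phosphatase tpp1, and the neutral trehalase ntp1 splits it into glucose. In fission yeast gpd1 and ntp1 are known targets of the Sty1 stress kinase and its transcription factor Atf1.

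All values are log2 expression summaries made by the authors with RMA, so a difference of 1 is a 2-fold change, and they rank samples for 1 gene, not genes against each other. The pap1 probe set read 10.10 in treated and 9.92 in control wild type cells, and 2.17 in treated and 2.34 in control cells of the deletion. The last 2 lie under a background level of 3.41, and all 6 glycerol and trehalose genes lay well above it in every array. Treated arrays differed from controls in the signal along control transcripts, where a larger 3' minus 5' difference means relatively more signal from the 3' end. Its median over 7 S. pombe transcripts was 3.35 in treated and 1.34 in control wild type arrays, and 2.64 in treated and 1.65 in control deletion arrays. Probe sets for bacterial transcripts that labelling kits supply as added poly-A controls moved likewise. Their 3' minus middle difference, the median of dap, phe and thr, was 2.88 in treated and 1.36 in control wild type arrays, and 1.66 in treated and 1.20 in control deletion arrays. Hybridization controls averaged 9.72 in treated wild type arrays and between 8.57 and 8.71 in the other groups. The part of these shifts in the results below was not tested. The fits quoted beside some results cannot tell it apart from a difference between the strains' responses.

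**Figure D1:**
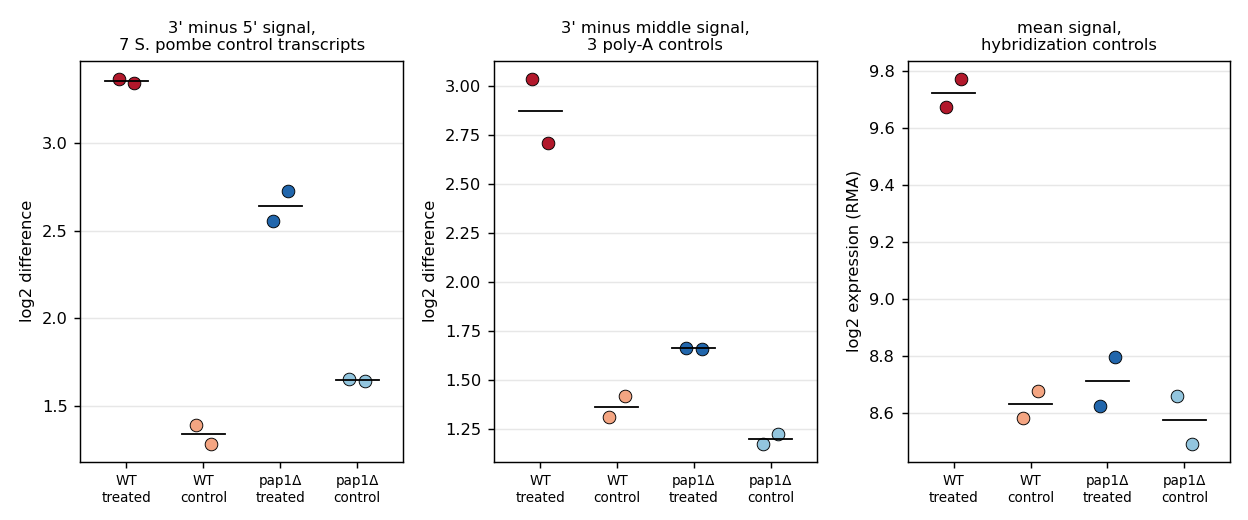
Control probe sets in each array, with strain and treatment on the x axis and log2 values on the y axis; points are arrays and lines are means of 2. The treated wild type arrays stand highest in all 3 panels, at 3.34 and 3.36 for the S. pombe transcripts, with a mean of 2.88 for the poly-A controls, and at 9.67 and 9.77 for the hybridization controls.

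In wild type cells 5 of the 6 genes fell under detaNONOate, and gut2 did not pass the test. The steepest fall was in gld1, the glycerol dehydrogenase, at 5.48-fold, followed by gpd1 at 2.83-fold, ntp1, tpp1 and tps1. The limma fit over all 2896 genes called 80.2% of them in this comparison, 39.7% lower and 40.5% higher (adjusted p under 0.05), so a call alone does not set these genes apart. The median change of the 6 was -1.08, and that of all genes was 0.017.

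For gpd1, the array values were 11.15 and 11.11 in treated wild type cells, against 12.62 and 12.64 in control cells. The difference was -1.50 ± 0.05 (log2, SE, n = 2 per group, limma adjusted p = 2.78e-07), and 171 of the 2896 genes fell further. For gut2, treated arrays read 11.77 and 11.75 and control arrays 11.72 and 11.70. These ranges did not overlap, but the difference of 0.05 ± 0.04 missed the threshold (limma adjusted p = 0.276), with a 95% interval from -0.04 to 0.14. After centring each array on its median S. pombe gene gut2 stood at 0.13 (limma adjusted p = 0.0182), and after quantile normalization at 0.21 (limma adjusted p = 8.7e-04), so its call depends on the scaling. For gld1, treated arrays read 8.85 and 8.78 and control arrays 11.23 and 11.31. This difference was -2.45 ± 0.05 (limma adjusted p = 6.47e-08), and 30 genes fell further. Within the same arrays the change of gpd1 minus that of gut2 was -1.55 ± 0.02 (SE over arrays, n = 2 per group), a value that adding a constant to a whole array cannot move. The gap was not kept in fits of 1 treatment effect for both strains with a measure of signal balance as covariate. There gpd1 and gut2 stood at -0.26 and -0.88 with the 3' minus 5' index and at -0.62 and -0.60 with the poly-A control index. The responses of both genes differed between the strains, in opposite directions. The covariate can take up such differences, so the part of signal balance in the gap was not tested by these fits.

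Of the trehalose genes, tps1 and tpp1 changed by nearly the same amount in wild type cells. For tps1, the synthase, treated wild type arrays read 10.70 and 10.56 and control arrays 11.58 and 11.53, a difference of -0.93 ± 0.07 (log2, SE, n = 2 per group, limma adjusted p = 9.24e-06). For tpp1, the phosphatase of the next step, they read 9.08 and 9.19 in treated and 10.12 and 10.06 in control cells. Its difference of -0.95 ± 0.06 was nearly that of tps1: the change of tpp1 minus that of tps1 was -0.02 ± 0.12 (SE over arrays). For the trehalase ntp1, treated arrays read 10.02 and 10.03 and control arrays 11.26 and 11.23, a difference of -1.22 ± 0.04 (limma adjusted p = 2.51e-07). In all 3 genes both treated arrays lay below both controls, as they did for 44% of all genes. The change of tps1 minus that of ntp1 was 0.29 ± 0.08, a gap larger than its error.

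**Figure D2:**
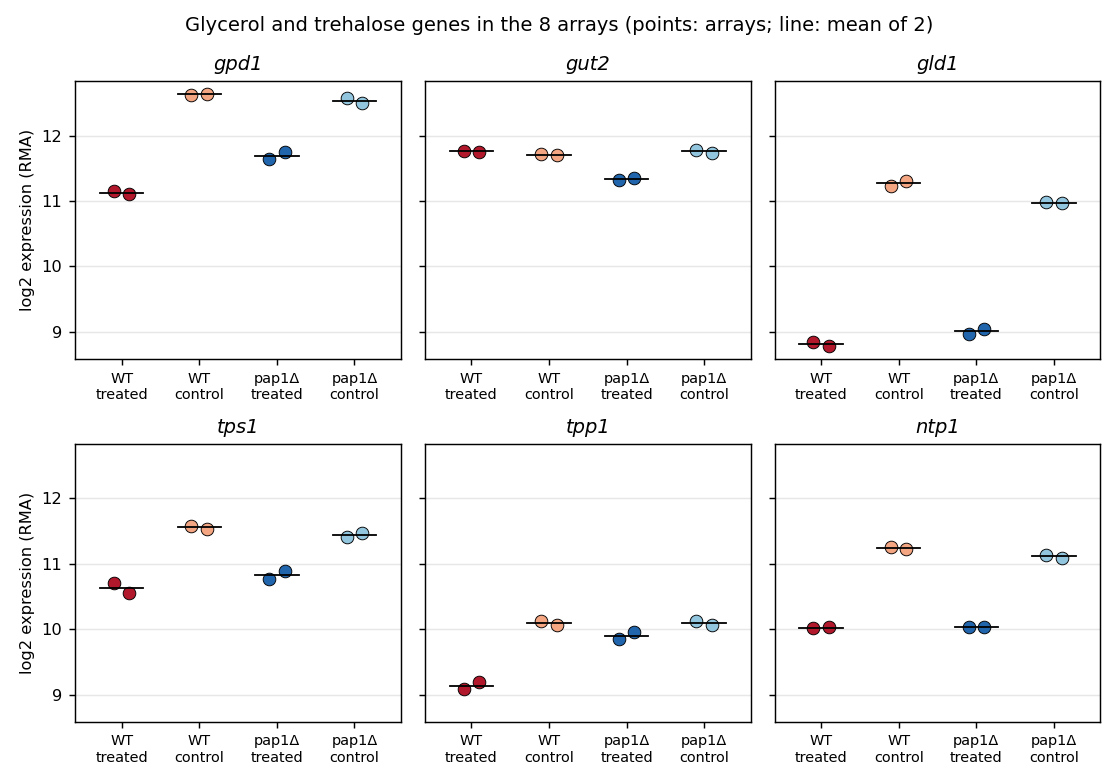
Log2 expression (y axis, RMA) of each gene in the 8 arrays, by strain and treatment (x axis); points are arrays and lines are means of 2. The treated wild type arrays lie below the wild type controls for 5 genes and slightly above them for gut2, and the treated deletion arrays lie below their controls for all 6.

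In cells without pap1 all 6 genes fell under detaNONOate. The fit called 62.4% of all genes here, 26.9% lower and 35.5% higher. The median change of the 6 was -0.73, beside 0.047 for all genes. The order was gld1 at 3.90-fold, ntp1 at 2.12-fold, gpd1 at 1.79-fold, tps1 at 1.53-fold, gut2 at 1.35-fold and tpp1 at 1.14-fold. Each of the 5 genes that fell in wild type was thus also called lower in the deletion.

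For gld1, treated deletion arrays read 8.97 and 9.05 and control arrays 10.98 and 10.97. The difference was -1.97 ± 0.05 (log2, SE, n = 2 per group, limma adjusted p = 1.63e-06), and 2 of the 2896 genes fell further. For gpd1, treated arrays read 11.64 and 11.75 and control arrays 12.57 and 12.50, a difference of -0.84 ± 0.05 (limma adjusted p = 1.82e-05). For gut2, treated arrays read 11.32 and 11.35, against 11.78 and 11.74 in controls, a difference of -0.43 ± 0.04 (limma adjusted p = 1.11e-04). The gut2 transcript was thus lower in treated than in control cells of this strain, with ranges that did not overlap, as was so for 36.5% of all genes. The change of gpd1 minus that of gut2 was -0.41 ± 0.04 (SE over arrays) here.

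For ntp1, treated deletion arrays both read 10.03 and control arrays 11.14 and 11.09, a difference of -1.09 ± 0.04 (log2, SE, n = 2 per group, limma adjusted p = 3.63e-06). For tps1, treated arrays read 10.76 and 10.89 and control arrays 11.41 and 11.47, a difference of -0.61 ± 0.07 (limma adjusted p = 2.31e-04). For tpp1, treated arrays read 9.84 and 9.95, against 10.12 and 10.06 in controls. These ranges lie near each other, and the fall of 0.19 ± 0.06 on the log2 scale passed narrowly (limma adjusted p = 0.0263). The call of tpp1 was lost after quantile normalization (limma adjusted p = 0.0563) and when control array 1, control array 2 or treated array 1 of this strain was left out (0.138, 0.0512 and 0.134). The phosphatase fell less than the synthase in this strain, by 0.42 ± 0.07 (SE over arrays).

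Measures of signal balance were also added as covariates, in fits with 1 treatment effect common to both strains. Without a covariate this form called 5 of the 6 genes lower and 63.7% of all genes, and gut2 stood at -0.19 (limma adjusted p = 0.13). With the 3' minus 5' index of S. pombe transcripts, gld1 (-1.53) and ntp1 (-0.97) kept their calls and gut2 (-0.88) gained one, where 28.3% of all genes were called. There gpd1 (-0.26) and tps1 (-0.36) lost theirs (limma adjusted p = 0.265 and 0.151), and tpp1 stood at 0.47 (limma adjusted p = 0.104). With the poly-A control index, 5 genes were called lower, gld1 (-1.82), ntp1 (-1.03), gpd1 (-0.62), gut2 (-0.60) and tps1 (-0.54), where 32.4% of all genes were called. There tpp1 stood at 0.11 (limma adjusted p = 0.409). Of the 6 genes, gld1 and ntp1 were called lower in both strains and in both of these fits. Both indices shifted less in the deletion than in wild type. As covariates they can therefore take up a difference between the strains' responses, and the fits cannot tell signal balance apart from such a difference.

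**Figure D3:**
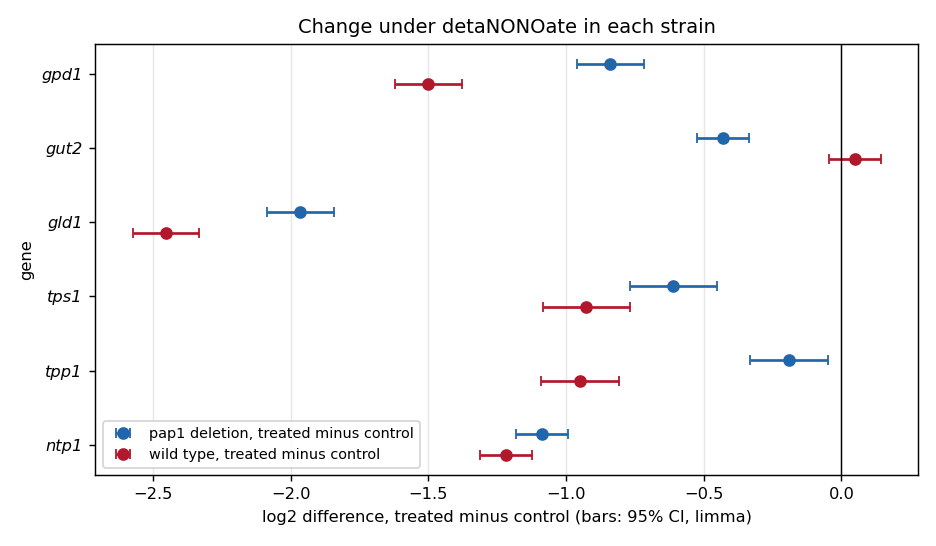
Change of each gene under detaNONOate (x axis, log2, treated minus control) in the pap1 deletion (blue, upper point) and in wild type (red, lower point); bars are 95% confidence intervals from limma. The intervals of the strains overlap for ntp1 and nearly touch for tps1, and gut2 lies at -0.43 in the deletion beside 0.05 in wild type.

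The test of the difference between the strains' responses asked whether cells with and without Pap1 changed alike. It passed for 5 of the 6 genes, where the fit called 59.1% of all genes, 33.9% higher and 25.1% lower in the deletion than in wild type. The fall was smaller in the deletion than in wild type for tpp1 (difference of log2 changes 0.76 ± 0.08, SE, limma adjusted p = 2.87e-04), gpd1 (0.66 ± 0.07, 2.66e-04), gld1 (0.49 ± 0.07, 9.83e-04) and tps1 (0.32 ± 0.09, 0.0235). For gut2, which did not pass in wild type, the change was lower in the deletion (-0.48 ± 0.06, limma adjusted p = 3.53e-04). For ntp1 the difference of 0.13 ± 0.06 missed the threshold (limma adjusted p = 0.0832), with a 95% interval from -0.002 to 0.27. The call of tps1 was lost after centring (limma adjusted p = 0.0552), after quantile normalization (limma adjusted p = 0.137) and when any of 4 arrays was left out: control array 1 (0.075) or treated array 2 (0.0524) of wild type, or control array 1 (0.0804) or treated array 2 (0.071) of the deletion. The 3' minus 5' index also shifted less in the deletion, by 0.99 against 2.01 in wild type, as did the poly-A control index, by 0.46 against 1.51, and their part in these differences was not tested.

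In control cells 1 of the 6 genes, gld1, was lower in the deletion than in wild type, where the fit called 17.4% of all genes, 9.15% lower and 8.22% higher. The glycerol dehydrogenase read 10.98 and 10.97 in deletion controls and 11.23 and 11.31 in wild type controls, a difference of -0.30 ± 0.05 (log2, SE, n = 2 per group, limma adjusted p = 0.0113). This call was lost without wild type control array 2 (limma adjusted p = 0.0819), deletion control array 1 (0.0817) or deletion control array 2 (0.0687). The other genes missed the threshold, with differences of -0.13 ± 0.04 for ntp1, -0.12 ± 0.07 for tps1, -0.10 ± 0.05 for gpd1, 0.05 ± 0.04 for gut2 and 0.002 ± 0.06 for tpp1. Of these ntp1 came closest (limma adjusted p = 0.0711).

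In treated cells the deletion stood above wild type for 4 genes and below it for gut2. The fit called 65.8% of all genes here, 39.3% higher and 26.5% lower. The phosphatase tpp1 read 9.84 and 9.95 in treated deletion cells, against 9.08 and 9.19 in treated wild type cells, 1.70-fold higher (limma adjusted p = 3.81e-05). For gpd1 the treated deletion arrays read 11.64 and 11.75 and the treated wild type arrays 11.15 and 11.11, 1.48-fold higher in the deletion (limma adjusted p = 6.83e-05). Both ranges were well apart. Smaller differences were called for gld1 (0.19 ± 0.05, limma adjusted p = 0.0125) and tps1 (0.20 ± 0.07, 0.0339). After quantile normalization these came to 0.07 and 0.06 and were not called. The call of gld1 was also lost without treated array 2 of wild type (0.0585) or of the deletion (0.0674). The call of tps1 was lost without any one array other than replicate 1 of the treated arrays of either strain (limma adjusted p between 0.0502 and 0.176). For gut2 the treated deletion arrays read 11.32 and 11.35 and the treated wild type arrays 11.77 and 11.75, a difference of -0.43 ± 0.04 (limma adjusted p = 7.78e-05). Treated cells of the strains met at the same reading for ntp1, with means of 10.03 in each and a difference of 0.004 ± 0.04 (95% interval from -0.09 to 0.10). The comparison in treated cells uses the same arrays as the comparisons above and is not independent of them.

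**Figure D4:**
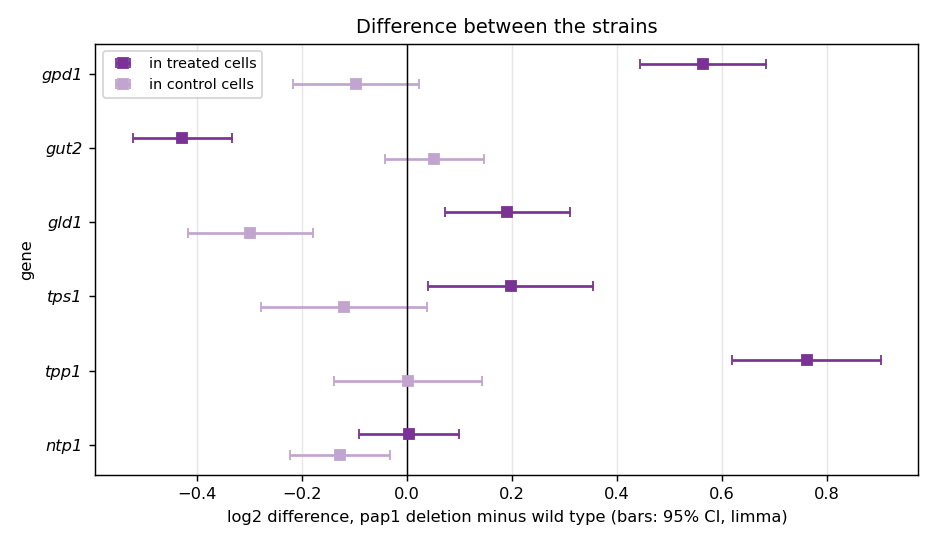
Difference between the strains (x axis, log2, pap1 deletion minus wild type) in treated cells (dark, upper point) and control cells (light, lower point); bars are 95% confidence intervals from limma. In control cells the points lie between -0.30 and 0.05, and in treated cells between -0.43 for gut2 and 0.76 for tpp1.

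Of 4 measured neighbours of the 6 genes in the glycerol pathway 1 rose, 1 fell and 2 did not pass in wild type, and 2 rose and 2 did not pass in the deletion (median changes 0.037 and 0.052). Of all genes, 40.5% were called higher and 39.7% lower in wild type, and 35.5% and 26.9% in the deletion. The second glycerol-3-phosphate dehydrogenase, gpd2, read 10.00 and 9.90 in treated and 10.60 and 10.56 in control wild type cells, a difference of -0.63 ± 0.05 (log2, SE, n = 2 per group, limma adjusted p = 1.6e-05). In the deletion gpd2 read 10.62 and 10.67 in treated and 10.53 and 10.48 in control cells, a difference of 0.14 ± 0.05 (limma adjusted p = 0.0468). The change of gpd1 minus that of gpd2 was -0.87 ± 0.04 in wild type and -0.98 ± 0.03 in the deletion (SE over arrays). The change of gpd2 also differed between the strains (0.77 ± 0.07, limma adjusted p = 1.34e-04). The dihydroxyacetone kinase dak1, which acts after gld1, rose by 0.16 ± 0.06 in wild type (limma adjusted p = 0.035) and stood at -0.07 in the deletion, while dak2 stood at 0.14 in wild type and rose by 0.42 ± 0.11 in the deletion (limma adjusted p = 0.0124). Triose phosphate isomerase, tpi1, which supplies dihydroxyacetone phosphate, stood at -0.06 and -0.03 and did not pass in either strain. Neither dihydroxyacetone kinase was called lower in either strain, while gld1, which makes their substrate, was called lower in both.

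Only tps2 was measured of the other listed trehalose genes, a further member of the trehalose phosphate synthase family. It read 9.34 and 9.39 in treated and 8.98 and 8.92 in control wild type cells, a rise of 0.41 ± 0.04 (limma adjusted p = 8.17e-05). In the deletion tps2 read 9.29 in both treated arrays and 9.16 and 9.11 in controls, a rise of 0.15 ± 0.04 (limma adjusted p = 0.0204). It moved opposite to tps1 and tpp1 in both strains. The difference between the strains was -0.26 ± 0.06 (limma adjusted p = 0.00963).

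Among 12 glycolysis and gluconeogenesis genes 1 rose, 8 fell and 3 did not pass in wild type (median -0.30), beside 39.7% of all genes called lower. In the deletion none rose, 2 fell and 10 did not pass (median -0.03), beside 26.9% of all genes called lower. The gluconeogenic fructose bisphosphatase fbp1 changed by -1.17 ± 0.06 in deletion cells, against -1.76 ± 0.06 in wild type cells. Hexokinase hxk1 read 9.08 in both treated wild type arrays, against 10.40 and 10.46 in controls, a difference of -1.35 ± 0.05. In the deletion hxk1 read 10.03 and 10.09 in treated and 10.28 and 10.22 in control cells, a difference of -0.19 ± 0.05. Pyruvate kinase pyk1 (-0.97 ± 0.05) and phosphofructokinase pfk1 (-0.72 ± 0.05) fell in wild type and were not called in the deletion (0.01 and 0.04), and the difference between the strains passed for both (0.99 and 0.76).

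Of the 20 regulators of stress and glucose signalling, 18 fell and 2 rose in wild type (median -1.12), where 39.7% of all genes were called lower and 40.5% higher. In the deletion 17 fell, 1 rose and 2 did not pass (median -0.70), where 26.9% of all genes were called lower and 35.5% higher. The genes that rose in wild type, named after their values were seen, were the adenylate cyclase gene cyr1 (0.49 ± 0.05) and the kinase gene wis4 (0.29 ± 0.11, limma adjusted p = 0.0452), and in the deletion cyr1 rose by 0.17 ± 0.05 and wis4 fell by 0.40 ± 0.11. In the deletion the largest falls in this list were in pcr1 (-1.63 ± 0.06), the partner of Atf1, the protein kinase A regulatory subunit cgs1 (-1.62 ± 0.06), atf1 (-1.59 ± 0.075) and the kinase srk1 (-1.55 ± 0.04). By the test of a strain difference the changes of 13 of the 20 regulators were called higher in the deletion, and 3 lower. Of all genes 33.9% were called higher and 25.1% lower. This test passed for pcr1 (0.67 ± 0.08, limma adjusted p = 4.82e-04), cgs1 (0.62 ± 0.09, 8.79e-04) and srk1 (0.89 ± 0.06, 4.97e-05). The change of atf1 did not pass it (0.13 ± 0.11, limma adjusted p = 0.326). Of gpd1 and ntp1, named above as Atf1 targets, ntp1 did not pass it either, and gpd1 did (0.66 ± 0.07, limma adjusted p = 2.66e-04). The kinase gene sty1 was called lower in the deletion (-0.29 ± 0.06, limma adjusted p = 0.0036) and in wild type (-1.21 ± 0.06). Its change differed between the strains by 0.92 ± 0.08 (limma adjusted p = 1.05e-04). Of the glucose-responsive transcription factors, scr1 changed by -0.88 ± 0.06 in deletion cells, against -1.27 ± 0.06 in wild type cells. The factor rst2 stood at -0.05 ± 0.06 in the deletion and had a called fall of 0.39 ± 0.06 in wild type. Between control cells, 7 of the 20 regulators were called lower in the deletion than in wild type and 0 higher. Of all genes 9.15% were called lower there and 8.22% higher. Among the 7 were pcr1 (-0.51 ± 0.06), cgs1 (-0.77 ± 0.06) and srk1 (-0.30 ± 0.04). Between treated cells, pcr1 (0.16 ± 0.06) and srk1 (0.59 ± 0.04) were called higher in the deletion, and cgs1 (-0.15 ± 0.06) was not called. The same arrays carried the index shifts given above, whose part in these lists was not tested.

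**Figure D5:**
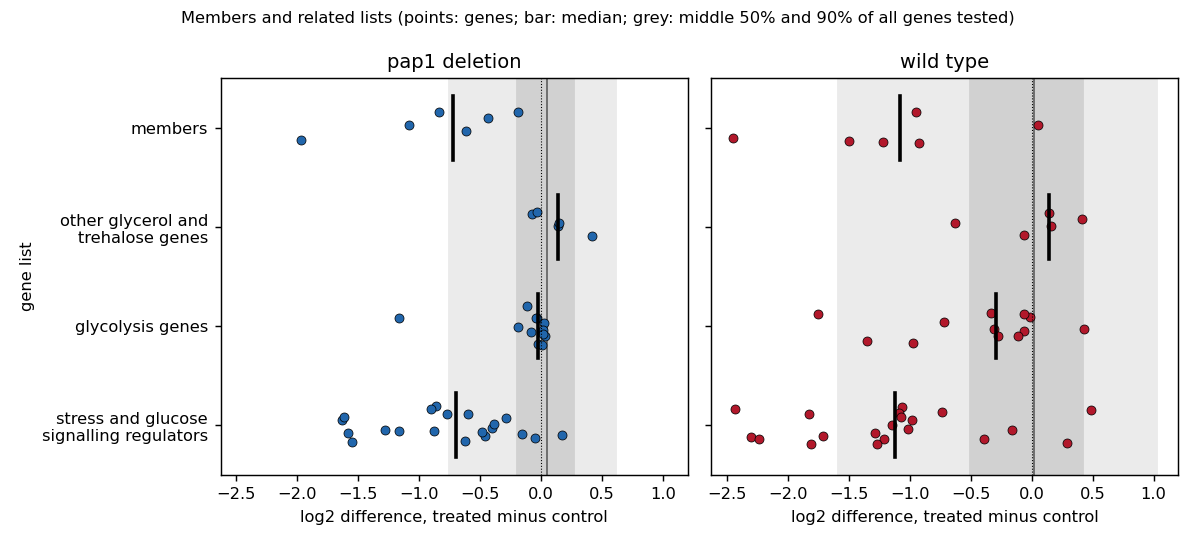
Change under detaNONOate (x axis, log2, treated minus control) of the 6 genes and of the related lists (y axis) in the pap1 deletion (left) and wild type (right); points are genes, black bars are list medians, and grey bands hold the middle 50% and 90% of all genes tested. The medians of the 6 genes (-0.73 and -1.08) and of the regulators (-0.70 and -1.12) lie below the middle 50% of all genes in both strains.

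The 6 genes were not all alike over the 8 arrays. As a measure of likeness, each gene was centred on its mean and the root mean square difference of log2 values over the 8 arrays was taken. Between members it was smallest for gpd1 and ntp1 (0.201), tps1 and ntp1 (0.212), and tps1 and tpp1 (0.238), and largest for gut2 and gld1 (1.04). All 3 genes nearest to a member lay closer to it than any other member did. They were picked as the closest of all genes tested, so this says little about how alike the members are. For gpd1 these were plb1, ppr7 and pre10 (0.0508 to 0.0708). For ntp1 they were res2, gsk3 and nif1 (0.0375 to 0.0917). For tps1 they were tup12, pdk1 and rox3 (0.0412 to 0.062), and for tpp1 swp1, mge1 and gma12 (0.0409 to 0.0452). For gut2 they were pof2, brl2 and fab1 (0.0399 to 0.0545). The genes nearest to gld1, with its steep pattern, lay further from it: sfp1, pcr1 and mug108 (0.145 to 0.167). The measure is not scaled to the size of a change. These distances describe 8 arrays in 4 groups that share the shifts of signal balance, and no test was made on them.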

How the data were processed

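Total RNA of 8 S. pombe samples was hybridized to Affymetrix Yeast_2 arrays. The authors deposited log2 values for every probe set, and the submitters' processing notes name RMA as the method, with its version not given in the sources used here. No further normalization was applied. Probe sets were named through the platform annotation and symbols updated through RefSeq (ASM294v3): of 10928 probe sets 2914 had a single S. pombe gene. The brightest was kept where 14 genes had several, which left 2896 genes. Background was set at the 95th percentile of the mean values of S. cerevisiae probe sets. Fits used limma 3.58.1 in R 4.3.3: lmFit with 1 mean per group, eBayes without trend, 4 residual degrees of freedom, two-sided tests, and Benjamini-Hochberg adjustment over 2896 genes at 0.05 with no fold minimum. The steps were tested on simulated data. The members and lists were chosen with earlier results of these data known. Named were all 6 members, gpd2, sty1, atf1, pcr1, rst2, scr1 and fbp1, genes among the 4 largest called changes of each list in each strain, and the 3 nearest genes of each member. The gene pgp1 was taken off the glycerol list after its values were seen, because the reference gave no product that bears out its place there. The genes tdh1 and gpd3 share a probe set and were not used. The poly-A control index, 3 transcripts, was chosen after the data were seen. Same-numbered arrays did not deviate together between groups (correlations over genes from -0.256 to 0.0586), so replicate numbers were not used as pairs.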

Additional observations from a re-analysis of the deposited data

Results flagged for a closer look

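The change under detaNONOate differed between the strains, by limma's test of the difference itself, for 5 of the 6 genes (pap1 deletion minus wild type, log2). The differences were 0.66 for gpd1, 0.49 for gld1, 0.32 for tps1 and 0.76 for tpp1, all smaller falls in the deletion, and -0.48 for gut2, which fell in the deletion and did not pass the test in wild type. Their limma adjusted p-values lay between 2.66e-04 and 0.0235, the highest being that of tps1. The 3' minus 5' index of control transcripts shifted by 0.99 in the deletion and 2.01 in wild type, and its part in these differences was not tested. The fit called 59.1% of all genes in this comparison.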

How the results depend on the processing

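Under the alternatives, 501 of 576 recomputed values of single genes kept their direction and side of the threshold. The common-effect fits give 1 effect for both strains or treatments, without covariate the average of the 2, and cannot return effects that differ. With an index as covariate they can take up a difference between the strains' responses. Against 5 (wild type) and 6 (deletion) members with group means, the common treatment effect passed for 5 without covariate and for 3 with the 3' minus 5' index. The strain effect with that index, common to control and treated cells, passed for 1, tpp1 (0.24), and not for gld1, which was called in control cells. The strain counts were 0 in control and treated cells in the fits without covariate and with the poly-A control index. The intensity trend gave 2 in control cells, and quantile normalization 3 in treated cells, against 1 and 5. Leaving out 1 array gave 5 members in every case for treatment in wild type, 5 to 6 in the deletion, 4 to 5 for the difference of responses, 0 to 1 between the control groups and 3 to 5 between the treated groups. Over all genes, the treatment counts of 1028 higher and 778 lower (deletion) and 1174 and 1149 (wild type) came to 1002 and 844 for the common effect without covariate, and from there to 511 and 310 with the 3' minus 5' index and 575 and 364 with the poly-A index. The strain counts in treated cells, 1139 higher and 766 lower, came to 20 and 20 for the common strain effect without covariate, and to 444 and 252, and 60 and 104, with these indices. Those in control cells, 238 and 265, came to 386 and 401 with only the arrays compared and 20 and 20 without covariate. With the poly-A index they were 60 and 104, with the 3' minus 5' index 444 were higher, and with the trend 367 were higher. Without 1 of these control arrays they were 24 to 51 higher and 83 to 87 lower.

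Signs changed as follows. The treatment effect of gut2 in wild type became -0.19 without covariate, -0.88 with the 3' minus 5' index and -0.60 with the poly-A index. That of tpp1, in both strains, became 0.47 and 0.11 with these indices. The strain effect in control cells became 0.23 without covariate and 0.11 with the 3' minus 5' index for gpd1, -0.19 and -0.095 for gut2, 0.039 without covariate for tps1 and -0.092 with the poly-A index for tpp1. The strain effect in treated cells became -0.053, -0.14 and -0.32 for gld1 in the fits without covariate, with the 3' minus 5' index and with the poly-A index, and -0.061, -0.086 and -0.14 for ntp1. With the poly-A index it became -0.15 for gpd1, 0.096 for gut2, -0.12 for tps1 and -0.092 for tpp1, and with the 3' minus 5' index -0.015 for tps1. For ntp1 it became -0.059 after centring and -0.11 after quantile normalization, which also moved its difference of responses to -0.021. Leaving out 1 array gave -0.033 to 0.037 for tpp1 between control groups and -0.00037 to 0.0089 for ntp1 between treated groups. Beyond averaging over groups, no cause was tested.

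Replicate numbers were also fitted as a block. It left the member counts at 5, 6, 5 and 1 and gave 4 between the treated groups, where tps1 was lost (limma adjusted p = 0.0525), and it moved the genes called higher in deletion controls to 156, against 238. With the numbers of the treated deletion arrays crossed, an alternative chosen after seeing the data, the block gave 5, 6, 5, 1 and 5 members. All 6 genes lie above background, but the number of arrays and the shifts of signal balance limit them.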
